A study of Caenorhabditis elegans with 12 samples.

Results

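Gain of SKN-1 function and loss of DAF-2 function were combined in whole Caenorhabditis elegans, and the genes described here are those that can show whether the 2 mutations acted additively on transcript levels. The quantity is the interaction, the log2 step between double mutant and daf-2lf minus the log2 step between skn-1gf and wild type. It is 0 where the skn-1gf step has the same size in both backgrounds, positive where the double mutant lies above that expectation and negative where it lies below. Additive on the log2 scale means that fold changes multiply. A gene was a member if its mean level reached 1 CPM (counts scaled to a fixed library total, with library sizes scaled by edgeR) in each of the 4 genotypes, so that genes at the count floor in any genotype were left out. The rule took 11248 of the 46936 genes in the deposited table, all of them among the 15575 genes tested, and 11022 of them code for protein. Just inside the rule were Y9D1A.1, C18D4.8 and slc-36.5, whose lowest genotype mean was 1.00 CPM each, and just outside it H40L08.3, T16G12.12 and H14A12.5, at 0.999, 0.998 and 0.997 CPM. Of the 4327 tested genes outside the rule, 419 had a positive and 531 a negative interaction call, and they are not described further.

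The 4 genotypes were the double mutant daf-2lf;skn-1gf, the single mutant daf-2lf, the single mutant skn-1gf and wild type, with 3 RNA-seq libraries each. All animals were taken whole from NGM (nematode growth medium) plates with OP50 bacteria as food, and RNA was extracted from TRIzol lysates. In the genotype names, gf means gain of function and lf means loss of function, and the double mutant carries both changes. The alleles, the strain background, the age and the developmental stage at harvest are not given in the sources used here, nor is it said whether the 3 libraries of a genotype came from separately grown populations. Genotype and any difference in stage or age between the genotypes therefore cannot be told apart, and p-values measure only the spread between these libraries.

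SKN-1 is the worm's Nrf-type transcription factor and is known for driving detoxification, glutathione and proteasome genes, mostly from the intestine. DAF-2 is the insulin/IGF-1 receptor, and when its activity is low the FOXO factor DAF-16 enters nuclei, lifespan is extended and stress defences rise. The pathways meet, because insulin signalling through DAF-2 is also known to hold SKN-1 out of intestinal nuclei. A daf-2 mutation can therefore already raise SKN-1 activity, and a 2 by 2 design is the usual way to ask whether a second, activating mutation in skn-1 adds the same step again.

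Total counts were 16779245 to 29346039 per library, and 3 counts corresponded to 0.105 to 0.192 CPM, which is well under the membership level. Replicate libraries varied with a biological coefficient of variation of 23.9%. The library daf-2lf replicate 1 stood apart from its replicates in step with gene length (Spearman rho of -0.58 across genes between its log2 deviation and length), so the count of each gene list below is also given without it where that moves it by more than 1.5 times. Markers of other cell types moved with the genotypes. Summed over 5 germ-line markers, levels were 492 to 525 CPM in the double mutant, 259 to 509.7 in daf-2lf, 369 to 1108 in skn-1gf and 1500.5 to 1610.3 in wild type, with skn-1gf replicate 3 the highest of its group. The sperm markers, none of which is a member, summed to 2.14 to 2.72 CPM in the double mutant, 1.97 to 2.300 in daf-2lf, 410.1 to 801 in skn-1gf and 1624 to 2030.4 in wild type. In whole animals, fewer cells of a type and less RNA per cell cannot be told apart. The targeted genes gave no interaction call with all 12 libraries. The skn-1 transcript had 220.2 ± 12.1 CPM in the double mutant, 172 ± 6.25 in daf-2lf, 149 ± 3.66 in skn-1gf and 118 ± 7.06 in wild type (SD, n = 3 each) and an interaction of 0.02 log2 (SE 0.16, adjusted p = 0.972), and daf-2 had 127 ± 4.07 CPM in the double mutant, 92.7 ± 57.1 in daf-2lf, 91.9 ± 2.66 in skn-1gf and 67.5 ± 1.29 in wild type and an interaction of 0.01 log2 (SE 0.56, adjusted p = 1.00). Without daf-2lf replicate 1 the daf-2 interaction was -0.33 log2 and was called (adjusted p = 0.0224).

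Of the 11248 members, 3336 (29.7%) had an interaction past an adjusted p of 0.05 in edgeR's quasi-likelihood test, which is called here, 1116 positive (9.92%) and 2220 negative (19.7%). Called interactions of at least 2-fold numbered 856 positive (7.61%) and 1655 negative (14.7%). The 95% interval lay wholly between -1 and 1 log2 for 3217 members (28.6%), which is the number for which a departure from additivity of 2-fold or more fell outside the interval. The skn-1gf step itself was large in the wild-type background and small in the daf-2lf background. Between the double mutant and daf-2lf, 102 members were called higher (0.907%) and 57 lower (0.507%), against 2742 higher (24.4%) and 1647 lower (14.6%) between skn-1gf and wild type. The middle 50% of members lay between -0.25 and 0.29 log2 between the double mutant and daf-2lf, against -0.31 to 0.58 log2 between skn-1gf and wild type. The ranges without daf-2lf replicate 1 were -0.16 to 0.14 log2 between the double mutant and daf-2lf and -0.40 to 0.49 log2 between skn-1gf and wild type.

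Without daf-2lf replicate 1 the calls numbered 2262 positive (20.1%) and 2689 negative (23.9%), and 1097 positive (9.75%) and 2059 negative (18.3%) members were called with the same sign both ways. Leaving out another single library gave 663 to 1540 positive and 1404 to 2612 negative calls. Positive calls were fewer by more than 1.5 times without double-mutant replicates 2 and 3 (727 and 679), skn-1gf replicate 1 (663) and wild-type replicates 1 and 2 (681 and 739), and negative ones without wild-type replicate 1 (1404). For the larger lists below, the smallest count with a library left out is given where it was more than 1.5 times smaller. No member called here was called with the opposite sign in any of the 26 alternatives. Some of these could not reverse a sign, because they kept the log2 values of the main fit. They changed only the membership rule, the robust estimation or the threshold of the test. The balance of signs depended on the scaling of libraries, since positive calls made up 33.5% of all calls with TMM factors (a trimmed mean of M-values), 47.9% with relative log expression (RLE) factors and 25.5% with upper-quartile factors. The median interaction over members was -0.12 log2 with TMM, 0.04 with RLE and -0.25 with upper-quartile factors, and values below are read against that median.

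**Figure D1:**
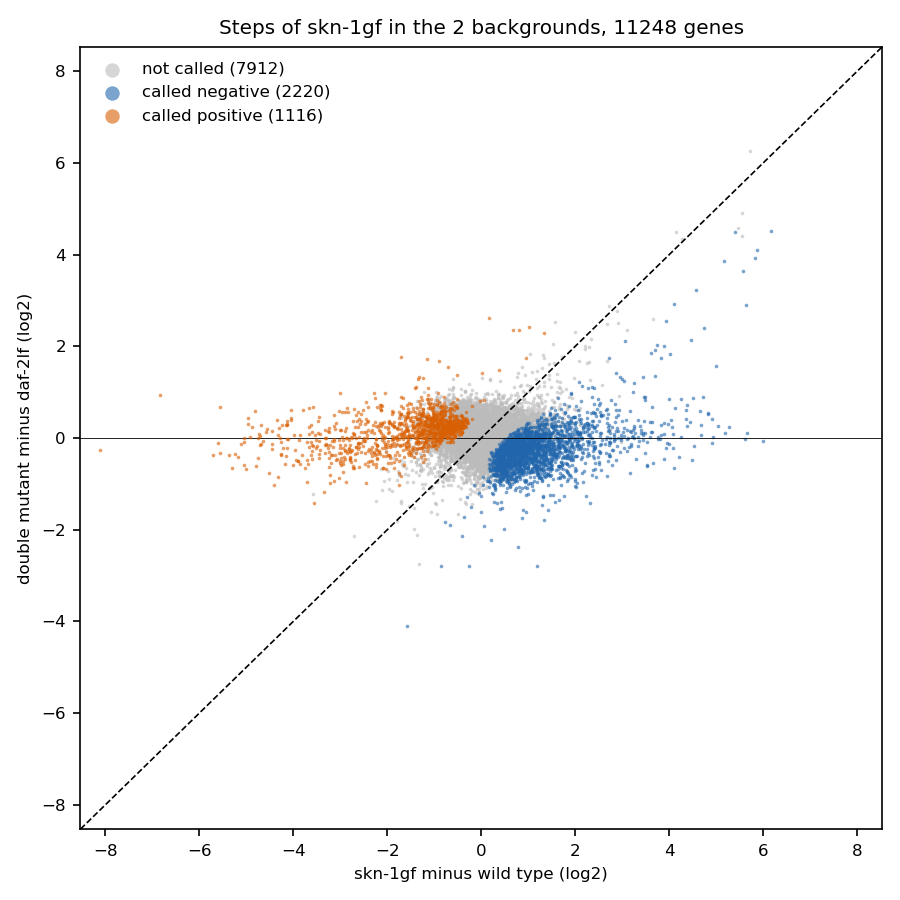
Each point is 1 of 11248 members, with the log2 step between double mutant and daf-2lf on the vertical axis and that between skn-1gf and wild type on the horizontal axis. The dashed diagonal marks equal steps, where the interaction is 0. The called members, 1116 positive (orange) and 2220 negative (blue), spread along the horizontal axis while most stay near 0 on the vertical one.

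The shapes of the called genes across the genotypes were described by which genotype stood alone, if any. A genotype was taken to stand alone where its mean was at least 2-fold from each of the other 3 and farther from the nearest of them than these 3 were from each other. Among the 1116 members with a positive interaction, skn-1gf alone was low in 366 and wild type alone was high in 204, while daf-2lf alone was low in 3, the double mutant alone was high in 2 and no genotype stood alone in 541. Among the 2220 with a negative interaction, wild type alone was low in 635, skn-1gf alone was high in 49, daf-2lf alone was high in 12 and the double mutant alone was low in 6, with no genotype alone in 1518. Over all members, skn-1gf alone was low in 411, wild type alone was low in 724 and wild type alone was high in 279. Wild type had the highest mean of the 4 genotypes in 831 of the 1116 positive members and the lowest in 1867 of the 2220 negative ones. These counts describe the means and carry no test, because the sign of the interaction already constrains which genotype can stand alone.

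The largest positive interaction of any protein-coding member was that of Y47D7A.15 (chromosome V, 4431695 to 4433187, minus strand, WBcel235 coordinates of the deposited table). It had 62.4, 96.7 and 108 CPM in the double mutant, 143, 87.7 and 91.1 in daf-2lf, 0.809, 1.53 and 1.24 in skn-1gf and 273, 538 and 180.2 in wild type. The 3 skn-1gf libraries were far below the other 9, and the double mutant and daf-2lf overlapped. The additive expectation for the double mutant, daf-2lf times skn-1gf over wild type, was 0.388 CPM, and the interaction was 7.85 log2 (SE 0.60, adjusted p = 3.17e-05). C38C6.3 and ZC84.1 had the same shape, with means of 23.99 CPM in the double mutant, 25.8 in daf-2lf, 1.04 in skn-1gf and 51.9 in wild type for C38C6.3 and an interaction of 5.49 log2, and 20.3 CPM in the double mutant, 13.5 in daf-2lf, 1.01 in skn-1gf and 30.1 in wild type for ZC84.1 and an interaction of 5.40 log2. Genes whose exons overlap ZC84.1 held counts equal to 84.5% of its own, so its level is uncertain where strand was not used in counting. C50D2.1 and mam-2 completed the unnamed or little-studied genes among the 10 largest, at 5.12 and 5.26 log2, and overlapping genes held 683% of the counts of mam-2.

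At the negative end, wild type was the low genotype in all 10 of the largest interactions. The collagen gene col-146 (chromosome V, 9629943 to 9631012, plus strand) had 259.6, 192 and 149 CPM in the double mutant, 236, 220.4 and 173 in daf-2lf, 265, 491 and 239 in skn-1gf and 3.51, 2.55 and 9.52 in wild type. All 9 mutant libraries lay above all 3 wild-type ones, and the additive expectation of 13379 CPM in the double mutant was far above what was measured. Its interaction was -6.06 log2 (SE 0.64, adjusted p = 9.18e-05). K07E1.1 had means of 38.7 CPM in the double mutant, 38.96 in daf-2lf, 50.6 in skn-1gf and 1.03 in wild type and an interaction of -5.62 log2 (SE 0.57, adjusted p = 7.81e-05). The degenerin-family sodium channel gene del-6 had 129 CPM in the double mutant, 108 in daf-2lf, 352 in skn-1gf and 10.7 in wild type, with an interaction of -4.78 log2. F55H12.4, F18E9.3 and F35B3.4, which have no gene class name, had interactions of -5.01, -4.91 and -4.76 log2. In these genes each mutation alone came with a high level and the combination did not go beyond it.

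Genes of the cuticle were among the largest interactions in both directions. The cuticle is a collagen matrix that the epidermis rebuilds at every moult, and its genes are switched on in waves around each moult and at the change from larva to adult. Epidermis and moult markers summed to 2840.4 to 3167 CPM in the double mutant, 2886 to 3496 in daf-2lf, 1157 to 1463 in skn-1gf and 1932 to 2607 in wild type, and their part in these results was not tested. These markers include genes of the lists described here, among them mlt-10 and nas-37, so they are no separate readout. Of the 20 named body shape collagens (dpy, rol, sqt, bli, lon and others) that are members, 13 were called positive and 0 negative, with a median interaction of 2.25 log2 against -0.12 over all members. The calls were 13 positive and 1 negative without daf-2lf replicate 1. The numbered col collagens went both ways, with 23 positive and 36 negative among 85 members and a median of -0.83 log2.

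Among the body shape collagens, dpy-5 (chromosome I, 5432197 to 5433051, minus strand), whose loss makes worms short and fat, had 1450.3, 2046 and 2037 CPM in the double mutant, 2463, 1737 and 1535 in daf-2lf, 173, 142 and 178 in skn-1gf and 1872, 1937 and 1839 in wild type. The skn-1gf libraries were all below the other 9, which overlapped across 3 genotypes. The steps were -0.05 log2 (SE 0.19, adjusted p = 0.924) between the double mutant and daf-2lf and -3.52 log2 (SE 0.21, adjusted p = 6.26e-07) between skn-1gf and wild type, and the interaction was 3.47 log2 (SE 0.28, adjusted p = 3.17e-05). The collagen gene dpy-4 had the same shape, with 1910.1 CPM in the double mutant, 2175 in daf-2lf, 166 in skn-1gf and 2115 in wild type and an interaction of 3.48 log2 (SE 0.32, adjusted p = 4.91e-05). A different shape was that of rol-1, whose mutants roll as they move, with 1.64, 3.09 and 5.31 CPM in the double mutant, 2.16, 1.43 and 1.63 in daf-2lf, 8.14, 8.36 and 22.4 in skn-1gf and 1492, 1849 and 1148 in wild type. Wild type alone was high, no mutant library came near it, and the interaction was 7.79 log2 (SE 0.69, adjusted p = 4.33e-05). The blister collagen bli-6 also had its highest level in wild type, with 1.57 CPM in the double mutant, 1.55 in daf-2lf, 60.5 in skn-1gf and 1183 in wild type and an interaction of 4.29 log2. These 2 genes and dpy-5 share the sign of the interaction while differing in which genotype stood apart.

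The col collagens col-138, col-71, col-97 and col-109 had the largest positive interactions of their family. For col-138 the libraries gave 2.23, 3.87 and 3.94 CPM in the double mutant, 2.31, 2.45 and 1.57 in daf-2lf, 33.3, 25.3 and 69.5 in skn-1gf and 2033, 2395 and 1662 in wild type, wild type standing above all others, and the interaction was 6.24 log2 (SE 0.53, adjusted p = 3.96e-05). The values of col-71 averaged 30.4 CPM in the double mutant, 22.3 in daf-2lf, 68.6 in skn-1gf and 2134 in wild type, and its interaction was 5.40 log2. Those of col-97 averaged 117 CPM in the double mutant, 147 in daf-2lf, 30.2 in skn-1gf and 1422 in wild type, with skn-1gf the lowest, and its interaction was 5.23 log2, while col-109 had 4.98 log2. At the other end, col-147 had 859.7, 703 and 568 CPM in the double mutant, 712, 668 and 584 in daf-2lf, 1182, 2226 and 1224 in skn-1gf and 16.02, 12.6 and 62.7 in wild type, so that all mutant libraries exceeded all wild-type ones. Its interaction was -5.55 log2 (SE 0.73, adjusted p = 0.000325), that of col-39 was -5.09 log2 and that of col-160 was -5.04 log2. In col-150 skn-1gf alone was high, with 6.29 CPM in the double mutant, 7.64 in daf-2lf, 26.5 in skn-1gf and 3.100 in wild type and an interaction of -3.38 log2. Collagens form a large family of similar sequence, and how reads matching several genes were counted is not given in the sources used here.

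**Figure D2:**
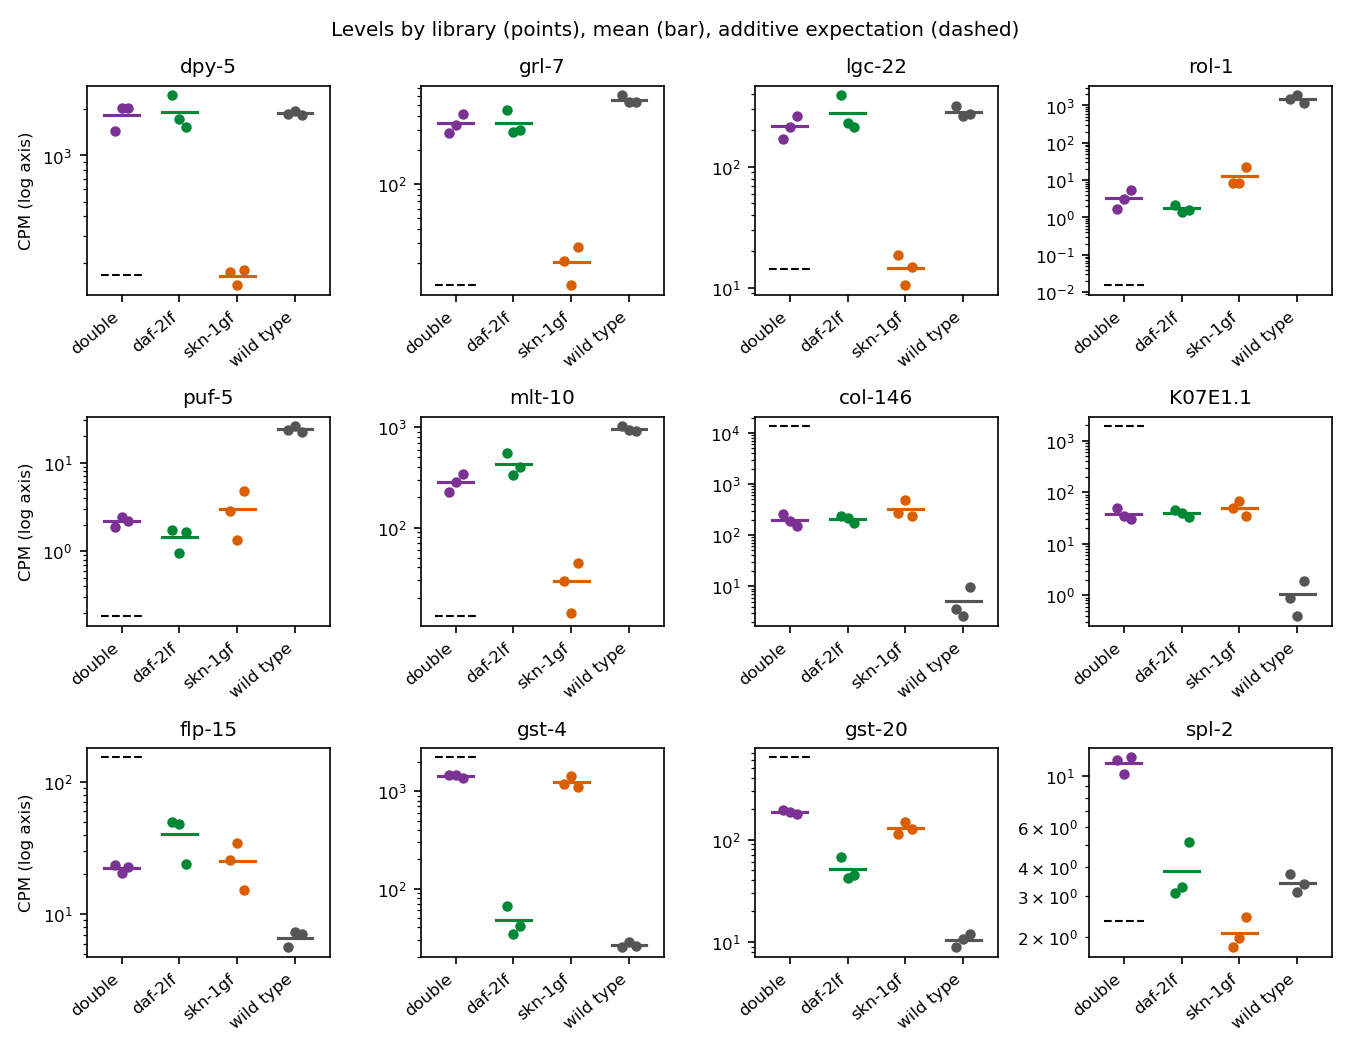
CPM on a log axis for 12 genes, 1 panel each, with a point for each of the 3 libraries of the double mutant, daf-2lf, skn-1gf and wild type, a bar at the mean, and a dashed line in the double-mutant column at the additive expectation. In dpy-5 and grl-7 skn-1gf alone is low, in rol-1 wild type alone is high, in col-146 and K07E1.1 wild type alone is low, and in gst-4 the double mutant lies at 1427 CPM against an expectation of 2216 CPM.

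Hedgehog-related genes encode secreted proteins that nematodes use in the cuticle in place of a classical Hedgehog ligand, and the patched-related genes encode membrane proteins of the family of its receptor. With 51 members, 26 were positive and 14 negative, and the median was 1.24 log2. The ground-like gene grl-7 had 279, 333 and 409 CPM in the double mutant, 444, 284 and 299 in daf-2lf, 20.99, 12.8 and 27.5 in skn-1gf and 601, 531 and 524 in wild type, skn-1gf lying below the other 9 libraries, and an interaction of 4.74 log2 (SE 0.38, adjusted p = 3.21e-05). Its relative grl-5 had 157 CPM in the double mutant, 203 in daf-2lf, 7.89 in skn-1gf and 415 in wild type and 5.34 log2, the warthog gene wrt-4 had 4.90 log2 and the groundhog gene grd-2 had 4.70 log2. The opposite sign was found in grd-10, with 48.3 CPM in the double mutant, 67.3 in daf-2lf, 63.6 in skn-1gf and 2.85 in wild type and -4.97 log2 (SE 0.64, adjusted p = 0.000262), and in grd-13, grl-21 and grd-3, at -4.71, -4.61 and -4.15 log2. In each of these 4 wild type had the lowest mean.

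The genes that drive or carry out moulting leaned the positive way, with 9 of 31 members positive and 3 negative (median 0.41 log2). Omitting daf-2lf replicate 1 gave 16 positive and 6 negative calls. The moulting gene mlt-10 had 224, 288 and 339 CPM in the double mutant, 548, 338 and 401 in daf-2lf, 29.1, 14.2 and 43.9 in skn-1gf and 1018, 949.7 and 917 in wild type. Wild type was highest, skn-1gf lowest and the genotypes with daf-2lf in between, and the interaction was 4.45 log2 (SE 0.47, adjusted p = 9.46e-05). Another moulting gene, mlt-9, had 361 CPM in the double mutant, 391 in daf-2lf, 59.7 in skn-1gf and 366 in wild type and an interaction of 2.50 log2, and the hedgehog-related gene qua-1 had 3.09 log2. The transcription factor gene bed-3 had 4.05 log2, but overlapping genes held 317% of its counts. The transcription factor genes elt-3, nhr-25 and peb-1 had negative interactions of -1.66, -0.995 and -1.65 log2, with wild type lowest in each. The nhr-25 call was made in 18 of 24 alternatives.

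Astacins are secreted zinc metalloproteases, some of which digest the old cuticle. Their 21 members divided into 8 positive and 6 negative. The positive ones included nas-15, with 64.4 CPM in the double mutant, 55.05 in daf-2lf, 3.37 in skn-1gf and 68.3 in wild type and 4.52 log2 (SE 0.83, adjusted p = 0.00241), nas-14 at 4.50 log2 and nas-37, needed to shed the old cuticle, at 1.85 log2. The negative ones included nas-9 at -3.57 log2, toh-1 at -3.06 log2 and nas-33 at -2.77 log2. Cuticlins and other apical matrix genes divided into 7 positive and 9 negative among 33 members. The cuticlin gene cut-2 had 562 CPM in the double mutant, 651 in daf-2lf, 82.2 in skn-1gf and 578 in wild type and an interaction of 2.60 log2, and cut-6 had 2.58 log2. The fibrillin-like matrix gene fbn-1 had 423 CPM in the double mutant, 268 in daf-2lf, 649 in skn-1gf and 37.4 in wild type and -3.46 log2, and let-653, which lines narrow tubes, had -2.25 log2. Basement membranes underlie tissues and are a separate matrix, and 5 of their 26 members were positive and 2 negative. The calls were 9 positive and 6 negative with daf-2lf replicate 1 left out. The type IV collagen let-2 was among the positive ones at 1.40 log2 and the fibulin fbl-1 among the negative ones at -2.22 log2.

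Most lists of genes of the germ line and of dividing cells were called almost wholly in the positive direction, with tubulin genes (5 negative and 0 positive of 14) the other way. The germ line makes most of the dividing cells of an adult worm, and its oocytes store RNA for the embryo. Among P granule and germline RNA regulators 31 of 55 members were positive and 0 negative (median 1.39 log2), and among oocyte and eggshell genes 19 of 29 were positive and 1 negative (median 1.54 log2), against 9.92% positive and 19.7% negative over all members. The 2 lists are not separate, since puf-5 is in both. Meiotic chromosome genes gave 24 positive and 0 negative calls among 55 members, and 43 positive ones without daf-2lf replicate 1. The fewest positive calls with a single library left out were 14 and 9 for the first 2 lists, both without skn-1gf replicate 1, and 5 for the meiotic one, without wild-type replicate 1. Oocyte and eggshell markers summed to 59.4 to 67.8 CPM in the double mutant and 34.1 to 69.5 in daf-2lf. Their sums were 24.9 to 114 CPM in skn-1gf and 327 to 471 in wild type. The germ-line and oocyte markers include genes of these lists, among them syp-1 and cpg-1, so they are no separate readout. The part of germ-line size in the result was not tested.

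The oocyte gene puf-5, whose product binds and represses stored messages, had 1.86, 2.46 and 2.199 CPM in the double mutant, 1.76, 0.957 and 1.63 in daf-2lf, 2.88, 1.34 and 4.81 in skn-1gf and 23.5, 25.6 and 22.3 in wild type. Wild type alone was high, and skn-1gf overlapped both genotypes with daf-2lf. The steps were 0.58 log2 (SE 0.38, adjusted p = 0.486) between the double mutant and daf-2lf and -2.96 log2 (SE 0.35, adjusted p = 5.71e-05) between skn-1gf and wild type, and the interaction was 3.53 log2 (SE 0.52, adjusted p = 0.000608). The chondroitin proteoglycan gene cpg-1 of the eggshell had 7.31 CPM in the double mutant, 5.64 in daf-2lf, 6.71 in skn-1gf and 44.9 in wild type and an interaction of 3.09 log2 (SE 0.69, adjusted p = 0.00738). The embryonic fate regulators pos-1 and mex-1 had 2.78 and 2.79 log2, the oocyte gene puf-3 had 2.69 log2, the eggshell gene cpg-3 had 2.82 log2 and the egg activation gene egg-5 had 2.87 log2. In each of these, wild type had the highest mean and each mutation alone was already low. The exception in the oocyte list was cpg-9, with 44.2 CPM in the double mutant, 94.5 in daf-2lf, 121 in skn-1gf and 61.3 in wild type and a negative interaction of -2.08 log2.

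Meiotic genes had smaller interactions. The checkpoint kinase chk-2, which acts in chromosome pairing, had 5.995 CPM in the double mutant, 4.26 in daf-2lf, 7.49 in skn-1gf and 18.5 in wild type and 1.78 log2 (SE 0.52, adjusted p = 0.0264), and the synaptonemal complex gene syp-1 had 12.4 CPM in the double mutant, 6.64 in daf-2lf, 23.9 in skn-1gf and 41.6 in wild type and 1.69 log2 (SE 0.48, adjusted p = 0.0226). The pairing-centre gene zim-3 had 1.68 log2 (adjusted p = 0.0225). These 3 calls were made in 18, 18 and 19 of 24 alternatives. Mitosis and cell cycle genes gave 36 positive and 3 negative calls among 100 members (median 0.93 log2), and 67 positive without daf-2lf replicate 1. The mitotic cyclins cyb-2.1 and cyb-2.2 had 2.53 and 2.33 log2, while the G1 cyclin cyd-1, its partner kinase cdk-4 and the CDK inhibitor cki-1 were the negative ones at -1.86, -1.82 and -1.21 log2. For cyd-1 the libraries gave 28.7, 24.8 and 27.3 CPM in the double mutant, 28.4, 23.7 and 25.2 in daf-2lf, 15.4, 16.9 and 14.8 in skn-1gf and 3.29, 2.89 and 6.19 in wild type, all mutant libraries lying above wild type. DNA replication genes gave 12 positive and 0 negative calls among 39 members, and 27 positive ones without daf-2lf replicate 1. The fewest positive calls with a library left out were 19 for mitosis and cell cycle, without skn-1gf replicate 1, and 3 for DNA replication, without double-mutant replicate 3. The ribonucleotide reductase gene rnr-1 had 204 CPM in the double mutant, 191 in daf-2lf, 60.9 in skn-1gf and 176 in wild type and 1.63 log2, with skn-1gf lowest. The E2F-family gene efl-3 had the same order at 1.91 log2.

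Histone genes gave 11 positive and 1 negative calls among 23 members (median 0.86 log2). The linker histone gene hil-3 had 66.5 CPM in the double mutant, 87.02 in daf-2lf, 14.7 in skn-1gf and 73.3 in wild type and 1.93 log2 (SE 0.23, adjusted p = 0.000187), and the exception was the histone H3.3 gene his-71 at -1.01 log2. Many worm histone genes are near-identical copies and lack long poly(A) tails, so their counts are uncertain. Argonaute genes, whose products carry small RNAs, gave 7 positive and 0 negative calls among 19 members, among them alg-5 at 2.14 log2 and ergo-1 at 0.97 log2. Nuclear pore genes gave 5 positive and 0 negative calls among 24 members (15 positive without daf-2lf replicate 1), and chromatin and synMuv genes gave 7 and 1 among 82 (26 positive and 3 negative without it). The chromatin share of 8.54% positive is under the 9.92% over all members. The fewest positive calls were 5 for histones and 2 for Argonautes, both without daf-2lf replicate 2, and 1 for chromatin genes, without double-mutant replicate 2. Of the major sperm protein and sperm peptide list only 8 genes reached 1 CPM in every genotype, and 4 of them were positive. The gene spe-15, an unconventional myosin of spermatids, had 22.6 CPM in the double mutant, 14.98 in daf-2lf, 49.7 in skn-1gf and 125 in wild type and an interaction of 1.92 log2. Kinesin, dynein and myosin motors gave 6 positive and 2 negative calls among 41 members. Their 14.6% positive compares with the 9.92% over all members. Omitting daf-2lf replicate 1 gave 13 positive and 4 negative calls for motors, and 6 and 1 for Argonautes. The kinesin genes klp-18 and klp-15 of the oocyte meiotic spindle had 1.65 and 1.42 log2, and the dynein light chain genes dlc-3 and dlc-2 were the negative ones at -3.08 and -2.04 log2.

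**Figure D3:**
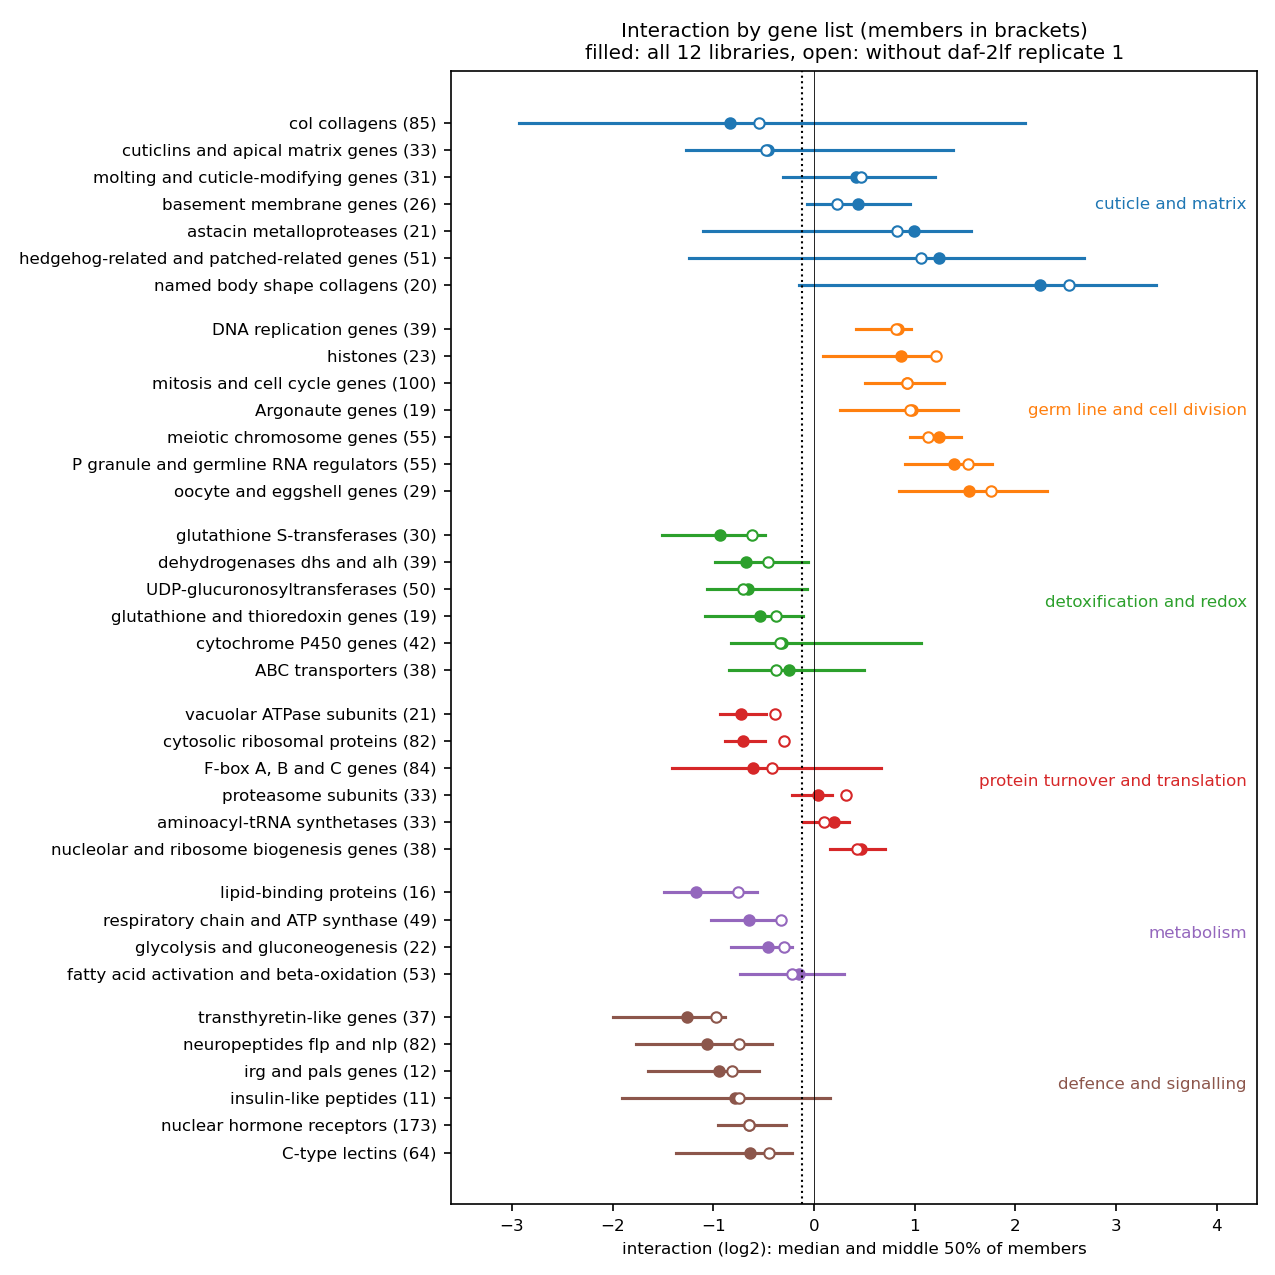
Median interaction in log2 (points) and the middle 50% of members (lines) for 36 gene lists, ordered from the most negative to the most positive median within 6 groups of function, with all 12 libraries (filled) and without daf-2lf replicate 1 (open). The dotted line is the median of all 11248 members. Germ-line lists and the named body shape collagens lie to the right, and transthyretin-like genes, neuropeptides and lipid-binding proteins to the left.

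Of the detoxification genes, the best known output of SKN-1, the glutathione S-transferases, glucuronosyltransferases and dehydrogenases were called negative more often than members at large, while P450 genes were called both ways. Intestine markers, which name the tissue where many of these genes are expressed, summed to 2438 to 2550.4 CPM in the double mutant, 2326 to 3554 in daf-2lf, 2837 to 3987 in skn-1gf and 1629 to 1859 in wild type, and their part was not tested. Glutathione S-transferases, which attach glutathione to toxic compounds, gave 17 negative and 0 positive calls among 30 members (median -0.93 log2). These are short genes, with a median length of 757.5 bases, and their median was -0.62 log2 without daf-2lf replicate 1. All members under 1000 bases had medians of -0.62 log2 with all libraries and -0.31 log2 without it. Of those 2920 members, 970 were called negative with all libraries. UDP-glucuronosyltransferases, which attach sugars, gave 19 negative and 4 positive among 50, and the short-chain and aldehyde dehydrogenases dhs and alh gave 17 and 1 among 39. Cytochrome P450 genes, which oxidise foreign compounds, were even at 9 negative and 9 positive of 42. ABC transporters, which export compounds from cells, gave 8 negative and 3 positive of 38. These counts stand beside 19.7% negative and 9.92% positive over all members. P450 genes and ABC transporters were 21.4% and 21.1% negative, close to the negative share over all members. On the positive side P450 genes, at 21.4%, were above the share over all members, and ABC transporters were at 7.89%. Omitting daf-2lf replicate 1 gave 17 negative and 7 positive calls for ABC transporters, 25 and 7 for glucuronosyltransferases and 17 and 2 for the dehydrogenases. Negative calls came to as few as 10 for the glucuronosyltransferases without double-mutant replicate 1, 11 for the dehydrogenases without double-mutant replicate 2 and 4 for P450 genes without skn-1gf replicate 1.

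The standard SKN-1 reporter gene gst-4 was not called. It had 1457, 1454 and 1369 CPM in the double mutant, 66.8, 34.1 and 41.01 in daf-2lf, 1180.3, 1423 and 1102 in skn-1gf and 24.9, 28.5 and 25.7 in wild type, the 6 libraries with skn-1gf lying above the 6 without it. The additive expectation for the double mutant was 2216 CPM, and the interaction was -0.64 log2 (SE 0.30, adjusted p = 0.13) with a 95% interval of -1.29 to 0.01. For gcs-1, which encodes the rate-limiting enzyme of glutathione synthesis, the interaction was -0.21 log2 (SE 0.50, adjusted p = 0.799) with a 95% interval of -1.30 to 0.89. The gcs-1 value without daf-2lf replicate 1 was -0.51 log2 and was called (adjusted p = 0.025). The DAF-16 target sod-3 is no member, since skn-1gf averaged under 1 CPM. Its interaction was 1.04 log2 (SE 0.39, adjusted p = 0.0675), and overlapping genes held 78.1% of its counts.

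Other detoxification genes kept a step in the daf-2lf background, but a smaller one. The gene gst-20 had 193, 187 and 177 CPM in the double mutant, 66.8, 42.4 and 45.3 in daf-2lf, 113, 147 and 126 in skn-1gf and 8.803, 10.7 and 11.8 in wild type. Here both genotypes with skn-1gf were above both without it, and daf-2lf was above wild type. The steps were 1.85 log2 (SE 0.19, adjusted p = 0.000239) between the double mutant and daf-2lf and 3.62 log2 (SE 0.21, adjusted p = 5.36e-07) between skn-1gf and wild type, and the interaction was -1.77 log2 (SE 0.27, adjusted p = 0.000763). In gst-12 the means were 113 CPM in the double mutant, 6.52 in daf-2lf, 62.7 in skn-1gf and 1.07 in wild type, and the interaction was -1.75 log2 (SE 0.43, adjusted p = 0.0115). The glucuronosyltransferase gene ugt-13 had 87.2 CPM in the double mutant, 19.7 in daf-2lf, 118 in skn-1gf and 5.398 in wild type and -2.31 log2 (SE 0.39, adjusted p = 0.00158). In gst-24 the means were 25.1 CPM in the double mutant, 15.1 in daf-2lf, 23.3 in skn-1gf and 3.26 in wild type, with the 3 mutant genotypes close together and wild type low, and the interaction was -2.10 log2. The transferase family is a set of similar sequences, and the same limit on shared reads holds as for the collagens.

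Some P450, glucuronosyltransferase and dehydrogenase genes had positive interactions. The aldehyde dehydrogenase gene alh-13, whose product makes a precursor of proline, had 259, 321 and 368 CPM in the double mutant, 285, 325 and 322 in daf-2lf, 61.4, 53.2 and 56.4 in skn-1gf and 432, 517 and 377 in wild type. Only skn-1gf was low, and the interaction was 2.98 log2 (SE 0.23, adjusted p = 3.17e-05). The P450 genes cyp-35A2, cyp-35A3 and cyp-35A5, known for induction by foreign compounds, had 1.89, 1.84 and 2.76 log2, with wild type highest in each. The genes ugt-52, ugt-41 and ugt-51 had 1.73, 1.85 and 1.66 log2. Among the negative ones, cyp-33C8 had 25.97 CPM in the double mutant, 24.7 in daf-2lf, 35.5 in skn-1gf and 4.53 in wild type and -2.89 log2, dhs-4 had -3.48 log2, dhs-27 had -2.54 log2 and ugt-2 had -2.98 log2, with wild type lowest in each. The transporter genes pgp-6 and abt-4 had -2.75 and -1.74 log2.

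Glutathione and thioredoxin genes gave 7 negative and 0 positive calls among 19 members, and the superoxide dismutases, catalases, peroxiredoxins and glutathione peroxidases gave 5 and 0 among 13. The peroxidase gene gpx-7 had 13.997 CPM in the double mutant, 25.1 in daf-2lf, 23.8 in skn-1gf and 10.1 in wild type and -2.07 log2 (SE 0.36, adjusted p = 0.00189), and gpx-2 had -1.37 log2. These lists were 36.8% and 38.5% negative, beside 19.7% over all members. Without daf-2lf replicate 1 they gave 9 negative and 1 positive calls and 5 and 0. The second list is of short genes, with a median length of 802 bases. Its median went from -0.76 to -0.36 log2 without that library. The genes that regulate SKN-1 gave 2 negative and 0 positive calls among 20 members, the 2 being elt-3 and the mitochondrial proline catabolism gene alh-6 (-0.76 log2). Omitting daf-2lf replicate 1 gave 4 negative and 3 positive calls. The regulators of insulin signalling, TOR and longevity gave 1 negative and 2 positive calls among 35. That is 2.86% negative and 5.71% positive, and the SKN-1 regulators were 10% negative. With all libraries both lists were thus under the 19.7% negative and 9.92% positive over all members. The calls of the insulin, TOR and longevity list became 6 negative and 7 positive when daf-2lf replicate 1 was left out. The zinc-finger gene pqm-1, which opposes DAF-16 in the nucleus, had 28.3, 29.6 and 33.4 CPM in the double mutant, 43.9, 41.6 and 32.7 in daf-2lf, 42.5, 50.5 and 34.1 in skn-1gf and 12.5, 13.1 and 14.8 in wild type, wild type lying lowest, and an interaction of -2.02 log2 (SE 0.25, adjusted p = 0.000212). The insulin receptor substrate gene ist-1 and the phosphoinositide 3-kinase gene age-1 were the positive ones at 1.29 and 0.79 log2, calls made in 13 and 17 of 24 alternatives.

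Few proteasome subunits were called with all libraries, while most small heat shock proteins were. The proteasome subunits, which SKN-1 is known to raise when proteasome activity fails, gave 1 positive and 0 negative calls among 33 members. The called one, rpn-6.2, is a paralogue of a regulatory subunit and had 6.57 CPM in the double mutant, 4.21 in daf-2lf, 20.6 in skn-1gf and 31.9 in wild type and 1.27 log2. Without daf-2lf replicate 1 there were 17 positive calls with a list median of 0.31 log2, so the count rests on that library. Small heat shock proteins gave 5 negative and 1 positive calls among 7 members. Leaving out daf-2lf replicate 1 gave 3 negative and 1 positive calls. The positive one, sip-1, had 217, 226 and 216 CPM in the double mutant, 210.3, 120.3 and 187 in daf-2lf, 5.35, 3.58 and 8.04 in skn-1gf and 24.6, 33.5 and 23.4 in wild type. It was high in the genotypes with daf-2lf and lowest in skn-1gf, and its interaction was 2.60 log2 (SE 0.39, adjusted p = 0.000713). The negative ones included hsp-12.3, with 1.45 CPM in the double mutant, 3.98 in daf-2lf, 7.102 in skn-1gf and 2.88 in wild type and -2.75 log2, and hsp-43 at -1.30 log2.

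The larger chaperones of the Hsp70, Hsp90 and Hsp60 classes gave 2 negative calls among 11 members, the endoplasmic reticulum chaperones enpl-1 at -0.78 and hsp-3 at -0.57 log2. There were 2 negative and 3 positive calls when daf-2lf replicate 1 was left out. DnaJ, chaperonin and prefoldin genes gave 3 of 43, and autophagy genes gave 3 of 29, all negative, but with daf-2lf replicate 1 left out the calls were 8 negative and 9 positive for the first list and 7 and 3 for the second. The autophagy receptor genes sqst-2 and sqst-5 had -3.09 and -1.92 log2. Ubiquitin conjugation, Skp1 and cullin genes gave 7 negative and 2 positive calls of 43, and 6 negative and 10 positive without daf-2lf replicate 1. With all libraries that is 16.3% negative and 4.65% positive, both under the 19.7% and 9.92% over all members. The DnaJ and autophagy lists were 6.98% and 10.3% negative, also under that share. The Skp1-related gene skr-3 had -1.84 log2. F-box genes, which pick substrates for that machinery and form a very large worm family, gave 31 negative and 1 positive calls of 84. Omitting daf-2lf replicate 1 gave 29 negative and 5 positive calls. In fbxa-157 skn-1gf was high, with 1.95 CPM in the double mutant, 3.22 in daf-2lf, 7.78 in skn-1gf and 1.69 in wild type and -2.92 log2, and fbxa-215 was the positive one at 2.06 log2. MATH and BTB domain genes gave 11 negative and 2 positive calls of 44, with bath-47 at -1.88 log2. Their median was the other way at 0.13 log2, and -0.04 log2 with upper-quartile factors. The calls were 16 negative and 9 positive with daf-2lf replicate 1 left out. Negative calls fell to 7 without wild-type replicate 1, and those of the ubiquitin list to 2 without double-mutant replicate 2.

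Gut proteases of the cathepsin and aspartyl classes gave 8 negative and 4 positive calls among 21 members. The cysteine protease genes cpz-1 and cpl-1, both also needed for moulting, had their lowest level in skn-1gf. For cpz-1 the libraries gave 424, 524 and 599.8 CPM in the double mutant, 822, 622 and 513 in daf-2lf, 121, 144 and 133 in skn-1gf and 808, 1050.3 and 710.2 in wild type, and the interaction was 2.35 log2 (SE 0.29, adjusted p = 0.000218). The gene cpl-1 had 1444 CPM in the double mutant, 1629 in daf-2lf, 571 in skn-1gf and 2051 in wild type and 1.67 log2. In the aspartyl protease asp-14 both genotypes with skn-1gf were high, with 2819.9 CPM in the double mutant, 482 in daf-2lf, 3361 in skn-1gf and 221 in wild type, and the step was smaller in daf-2lf, an interaction of -1.38 log2 (SE 0.37, adjusted p = 0.0192). Vacuolar ATPase subunits, which acidify lysosomes, gave 13 negative and 2 positive calls of 21, with vha-10 at -1.17 log2 and the positive membrane subunit unc-32 at 0.88 log2. Leaving out daf-2lf replicate 1 there were 14 negative and 2 positive calls. Leaving out double-mutant replicate 1 there were 5 negative ones, and leaving out skn-1gf replicate 2 brought the negative calls of the gut proteases to 5.

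Genes of the respiratory chain and of ribosomal proteins leaned the negative way by small amounts, as short members at large did. The respiratory chain and ATP synthase gave 20 negative and 0 positive calls among 49 members (median -0.65 log2), cytosolic ribosomal proteins 30 and 0 of 82 (median -0.71) and mitochondrial ribosomal proteins 31 and 0 of 71 (median -0.70). These are short genes, with median lengths of 932, 516.5 and 763 bases, and the interaction ran with gene length. Over members under 1000 bases the median interaction was -0.62 log2, and it was -0.15 from 1000 to 2000 bases, 0.29 from 2000 to 4000 bases and 0.57 above that. Without daf-2lf replicate 1 those 4 medians were -0.31, -0.07, 0.21 and 0.34 log2, and the medians of the 3 lists were -0.33, -0.30 and -0.41 log2, with 21, 32 and 41 negative calls. The positive calls then numbered 4, 1 and 0. With all libraries the lists were 40.8%, 36.6% and 43.7% negative, beside 19.7% over all members. Of the 2920 members under 1000 bases, 970 were negative with all libraries and 918 without daf-2lf replicate 1. The negative calls of these 3 lists varied with the library left out, with as few as 7 for the respiratory chain without skn-1gf replicate 2, 7 for cytosolic ribosomal proteins without double-mutant replicate 3 and 4 for mitochondrial ones without wild-type replicate 1. The largest were those of the cytochrome oxidase assembly gene cox-17 at -1.82 log2 and the ribosomal protein gene rpl-41.2 at -1.43 log2. For rpl-41.2 the means were 544 CPM in the double mutant, 1006 in daf-2lf, 1062 in skn-1gf and 729.9 in wild type.

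Other parts of the translation machinery held few calls. Aminoacyl-tRNA synthetases, which load transfer RNAs, gave 0 calls with edgeR among 33 members (5 at an unadjusted p under 0.05, 5 called by DESeq2), and 8 positive and 0 negative without daf-2lf replicate 1. The 2 most abundant, tars-1 and kars-1, had -0.13 log2 (95% interval -0.47 to 0.21) and -0.06 log2 (-0.50 to 0.37). Translation initiation and elongation factors gave 3 negative and 0 positive calls of 43, splicing factors 3 and 4 of 65 and nucleolar and ribosome biogenesis genes 0 and 3 of 38. The calls of these lists without daf-2lf replicate 1 were 5 negative and 8 positive, 5 and 19, and 1 and 18. The nucleolin gene nucl-1 had 1132 CPM in the double mutant, 777 in daf-2lf, 951 in skn-1gf and 1506 in wild type and 1.21 log2, a call made in 14 of 24 alternatives.

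Calls of the tricarboxylic acid cycle and of glycolysis were mostly negative too. The tricarboxylic acid cycle gave 6 negative and 0 positive calls of 21, and glycolysis and gluconeogenesis 8 and 1 of 22. That is 28.6% and 36.4% negative, beside 19.7% over all members. With daf-2lf replicate 1 left out, these were 6 and 1, and 9 and 3, beside 23.9% negative over all members. The tricarboxylic acid cycle median went from -0.34 to -0.09 log2 without that library, and that of glycolysis from -0.45 to -0.30 log2. The median over all members went from -0.12 to -0.04 log2. The cytosolic isocitrate dehydrogenase gene idh-1, a source of NADPH, had 573, 532 and 517 CPM in the double mutant, 936, 618 and 603 in daf-2lf, 980.01, 1225 and 858 in skn-1gf and 316, 266 and 398 in wild type. Wild type was lowest and skn-1gf had the highest mean, and the interaction was -2.06 log2 (SE 0.29, adjusted p = 0.000524). The glyceraldehyde phosphate dehydrogenase copies went opposite ways, gpd-2 and gpd-3 at -1.28 and -1.13 log2 and gpd-1 at 1.51 log2, and the similar copies may share reads. Glyoxylate and trehalose genes gave 1 positive and 0 negative calls of 9, the positive one being the trehalase gene tre-2 at 0.83 log2. Omitting daf-2lf replicate 1 gave 2 positive and 1 negative calls. The methionine cycle and transsulfuration gave 8 negative and 2 positive calls of 19, with the cystathionine lyase gene cth-1 at -2.01 log2 and the S-adenosylmethionine synthetase gene sams-5 at 1.76 log2. With daf-2lf replicate 1 left out, there were 10 negative and 4 positive calls. The fewest negative calls with a library left out were 3 for the tricarboxylic acid cycle and 5 for the methionine cycle, both without double-mutant replicate 1, and 5 for glycolysis without wild-type replicate 1.

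Fat metabolism was mixed. Fatty acid synthesis, desaturases and elongases gave 8 negative and 2 positive calls of 21, fatty acid activation and beta-oxidation 14 and 5 of 53, lipases 5 and 3 of 17 and lipid-binding proteins 10 and 0 of 16 (median -1.18 log2). Beta-oxidation was thus 26.4% negative and 9.43% positive, beside 19.7% and 9.92% over all members. With daf-2lf replicate 1 left out, beta-oxidation had 17 negative and 10 positive calls and lipid-binding proteins 9 and 2. The lipid-binding list is of short genes, with a median length of 618 bases. Its median was then -0.76 log2, against -0.31 log2 for all members under 1000 bases. Without double-mutant replicate 2 the negative calls of beta-oxidation numbered 6. The palmitoyl-CoA desaturase gene fat-5 had 81.5, 81.8 and 80.7 CPM in the double mutant, 156, 103 and 78.3 in daf-2lf, 15.1, 16.9 and 19.6 in skn-1gf and 72.3, 95.999 and 73.03 in wild type. Only skn-1gf was low, and the interaction was 1.76 log2 (SE 0.32, adjusted p = 0.00234). The branched-chain elongases elo-5 and elo-6 had -1.58 and -1.30 log2, and the sterol regulator sbp-1 had -1.21 log2. The acyl-CoA dehydrogenase gene acdh-6 had 29.4 CPM in the double mutant, 24.1 in daf-2lf, 2.57 in skn-1gf and 45.3 in wild type and 4.42 log2 (SE 0.47, adjusted p = 9.42e-05), the acyl-CoA synthetase gene acs-20, which acts in the epidermis, had 1.75 log2 and the starvation-induced acs-2 had -2.20 log2, with skn-1gf highest. The lysosomal lipase genes lipl-1 and lipl-2 had -1.59 and -2.09 log2, and lips-9 had 37.2 CPM in the double mutant, 54.7 in daf-2lf, 3.15 in skn-1gf and 57.3 in wild type and 3.62 log2. The lysosomal signalling gene lbp-8 had -2.27 log2. None of the vitellogenin genes, which encode yolk proteins, reached 1 CPM in every genotype.

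Called defence genes mostly had negative interactions, and the shares below stand beside 19.7% negative and 9.92% positive over all members. C-type lectins, a large family of secreted proteins many of which respond to infection, gave 21 negative and 5 positive calls of 64, lysozymes and saposin-like genes 7 and 1 of 23, and irg and pals infection response genes 6 and 0 of 12. The negative shares were 32.8% for lectins, 30.4% for lysozymes and saposin-like genes and 50% for irg and pals genes. With daf-2lf replicate 1 left out, the lysozyme list gave 7 negative and 3 positive calls, and its median went from -0.73 to -0.18 log2. The infection response gene irg-5 had 53.2, 57.2 and 69.3 CPM in the double mutant, 13.1, 12.2 and 8.58 in daf-2lf, 827, 945 and 356 in skn-1gf and 16.2, 38.8 and 24.3 in wild type. The skn-1gf libraries were highest, the double mutant came next and daf-2lf was lowest, and the interaction was -2.34 log2 (SE 0.52, adjusted p = 0.00684). The gene dod-17, named as downstream of DAF-16, had the same order with 142 CPM in the double mutant, 15.1 in daf-2lf, 542 in skn-1gf and 22.8 in wild type and -1.33 log2 (SE 0.38, adjusted p = 0.0228), a call made in 18 of 24 alternatives. Together the dod, dct, mul and cld genes gave 6 negative and 0 positive calls of 13, with dct-17 at -1.77 and dct-18 at -2.20 log2. Without skn-1gf replicate 2 there were 3 negative ones. Epidermal antimicrobial peptides of the nlp, cnc, fip and fipr classes gave 6 negative and 3 positive calls of 15, with cnc-8 at -4.13 log2 and fip-6 at 3.44 log2. Their median went from -0.78 to -0.33 log2 without daf-2lf replicate 1. The epidermal and lysozyme lists are of short genes, with median lengths of 363 and 596 bases. All members under 1000 bases had a median of -0.62 log2, and -0.31 log2 without that library. The saposin-like gene spp-13, with skn-1gf lowest, had 2.50 log2, against -1.97 log2 for spp-5.

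The rarer shapes, in which daf-2lf or the double mutant stood alone, held 23 called members. In clec-169 daf-2lf alone was high, with 4.59, 3.001 and 4.19 CPM in the double mutant, 103, 34.1 and 65.8 in daf-2lf, 5.75, 3.51 and 4.599 in skn-1gf and 14.02, 12.3 and 15.3 in wild type. The daf-2lf libraries lay above all 9 others although they differed widely among themselves. The steps were -4.10 log2 (SE 0.37, adjusted p = 7.25e-05) between the double mutant and daf-2lf and -1.58 log2 (SE 0.35, adjusted p = 0.00365) between skn-1gf and wild type, and the interaction was -2.52 log2 (SE 0.48, adjusted p = 0.00317). The lectin gene clec-60 had the same shape, with 4.76 CPM in the double mutant, 33.1 in daf-2lf, 3.38 in skn-1gf and 1.45 in wild type and -3.98 log2 (SE 0.63, adjusted p = 0.000988). In the invertebrate-type lysozyme gene ilys-5 the double mutant alone was low, with 37.6, 41.1 and 19.3 CPM in the double mutant, 266, 256 and 159 in daf-2lf, 372, 468 and 350.3 in skn-1gf and 691, 784 and 685 in wild type, an interaction of -1.94 log2 (SE 0.38, adjusted p = 0.00359). F23A7.4 and C47E12.9 shared that shape at -2.47 and -1.98 log2. The double mutant alone was high in 2 genes. The gene spl-2 encodes a sphingosine phosphate lyase and had 11.7, 10.2 and 11.97 CPM in the double mutant, 3.11, 3.29 and 5.16 in daf-2lf, 1.798, 1.98 and 2.44 in skn-1gf and 3.74, 3.13 and 3.37 in wild type. The double-mutant libraries lay above the other 9, the steps were 1.55 log2 (SE 0.22, adjusted p = 0.00306) between the double mutant and daf-2lf and -0.72 log2 (SE 0.23, adjusted p = 0.028) between skn-1gf and wild type, and the interaction was 2.27 log2 (SE 0.32, adjusted p = 0.000507). The acyltransferase-family gene oac-32 had 15.7 CPM in the double mutant, 3.08 in daf-2lf, 4.16 in skn-1gf and 2.63 in wild type and 1.67 log2 (SE 0.53, adjusted p = 0.0352), a call made in 15 of 24 alternatives. Low levels in daf-2lf alone marked Y54G2A.15, dpy-17 and T16A9.3, at 2.45, 1.41 and 1.41 log2, and these calls were made in 23, 15 and 15 of 24 alternatives.

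Metallothionein, ferritin and metal transport genes gave 10 negative and 2 positive calls among 34 members. With daf-2lf replicate 1 left out, there were 10 negative and 8 positive calls, so the excess of negative calls depended on that library. The ferritin gene ftn-1, which stores iron and is a known DAF-16 target, had 18.7, 18.5 and 12.2 CPM in the double mutant, 15.7, 17.2 and 17.7 in daf-2lf, 2.07, 1.405 and 2.11 in skn-1gf and 11.9, 12.4 and 8.04 in wild type. The skn-1gf libraries were lowest and the other 3 genotypes were closer to each other, and the interaction was 2.48 log2 (SE 0.33, adjusted p = 0.000364). The cdr family gene cdr-2 had 62.3 CPM in the double mutant, 72.8 in daf-2lf, 64.4 in skn-1gf and 12.02 in wild type and -2.65 log2, and the zinc transporter gene zipt-2.2 had -2.65 log2.

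Among signalling families, those of secreted peptides and small secreted proteins had the highest shares of negative calls. These were 52.4% for neuropeptides, 62.2% for transthyretin-like genes and 45.5% for insulin-like peptides. Neuropeptide genes of the flp and nlp classes gave 43 negative and 1 positive calls of 82 (median -1.06 log2), transthyretin-like genes, a nematode family of small secreted proteins, 23 and 0 of 37 (median -1.26), and insulin-like peptides, the ligands of DAF-2, 5 and 0 of 11. Nuclear hormone receptors gave 43 negative and 3 positive calls of 173, and 84 and 4 without daf-2lf replicate 1. Their 24.9% negative compares with 19.7% over all members. Without skn-1gf replicate 1 there were 23 negative ones. The first 3 lists are of short genes, with median lengths of 602.5, 558 and 521 bases, and without daf-2lf replicate 1 their medians were -0.75, -0.97 and -0.74 log2. Their calls then were 38 negative and 2 positive, 21 and 1, and 5 and 0. Neuron markers summed to 193 to 194 CPM in the double mutant, 185 to 249 in daf-2lf, 163 to 191 in skn-1gf and 138 to 149 in wild type, so they were lowest in wild type as well, and their part in the result was not tested.

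The FMRFamide-type neuropeptide gene flp-15 had 23.5, 20.4 and 22.9 CPM in the double mutant, 49.4, 47.8 and 23.8 in daf-2lf, 25.7, 34.7 and 15.3 in skn-1gf and 5.63, 7.32 and 7.12 in wild type. All mutant libraries lay above wild type, daf-2lf had the highest mean, and the interaction was -2.77 log2 (SE 0.44, adjusted p = 0.00104). The peptide gene nlp-20 had -2.95 log2. The gene nlp-27, at -4.13 log2, is counted in the list of epidermal antimicrobial peptides as well, so the 2 lists overlap. The transthyretin-like gene ttr-8 had 13.4 CPM in the double mutant, 17.7 in daf-2lf, 35.1 in skn-1gf and 1.88 in wild type and -4.61 log2 (SE 0.52, adjusted p = 0.000127), and ttr-59 had -2.92 log2. Among the insulin-like peptides ins-18, a known antagonist of DAF-2, had 3.37, 3.05 and 3.11 CPM in the double mutant, 6.87, 6.16 and 4.21 in daf-2lf, 5.39, 6.19 and 2.65 in skn-1gf and 1.44, 1.204 and 1.53 in wild type. Wild type was lowest, and the interaction was -2.61 log2 (SE 0.44, adjusted p = 0.00138). The genes ins-27, ins-17 and ins-33 had -2.08, -1.95 and -1.86 log2. The receptor gene nhr-41 was a positive exception, with 60.7 CPM in the double mutant, 61.9 in daf-2lf, 18.8 in skn-1gf and 62.8 in wild type, skn-1gf alone low, and 1.71 log2 (SE 0.19, adjusted p = 0.000118), while nhr-85, a developmental timing factor, had 19.4 CPM in the double mutant, 17.1 in daf-2lf, 14.1 in skn-1gf and 2.91 in wild type and -2.09 log2.

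TGF-beta and steroid genes of the dauer decision gave 6 negative and 0 positive calls of 21. With daf-2lf replicate 1 left out, there were 10 negative and 0 positive calls. The P450 gene daf-9, which makes the hormone that permits reproductive growth, had 36.9, 33.3 and 40.04 CPM in the double mutant, 29.997, 25.6 and 29.9 in daf-2lf, 14.2, 16.3 and 12.8 in skn-1gf and 4.57, 2.84 and 4.11 in wild type. The double mutant and daf-2lf were highest, skn-1gf intermediate and wild type lowest, and the interaction was -1.54 log2 (SE 0.26, adjusted p = 0.00152). Ligand-gated and potassium channels gave 21 negative and 4 positive calls of 117, and 36 and 5 without daf-2lf replicate 1. Leaving out double-mutant replicate 2 gave 8 negative calls. The channel gene lgc-22 had 169.9, 215 and 263 CPM in the double mutant, 388, 231 and 213 in daf-2lf, 18.7, 10.5 and 14.7 in skn-1gf and 315, 260.4 and 275 in wild type, with skn-1gf far below the other 9 libraries, and 3.91 log2 (SE 0.38, adjusted p = 6.16e-05). Synaptic vesicle and release genes gave 9 and 2 of 49 and cilium genes 2 and 0 of 32, with the SNAP-25 gene ric-4 at -1.46 log2 and the cilium gene xbx-5 at -1.53 log2. Channels, synaptic and cilium genes were thus 17.9%, 18.4% and 6.25% negative, no higher than the 19.7% over all members. Without daf-2lf replicate 1 the synaptic and cilium calls were 18 and 6, and 6 and 3.

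Muscle filament and attachment genes gave 9 negative and 2 positive calls of 50, and tubulin genes 5 and 0 of 14. The muscle share of 18% negative is about that over all members (19.7%), and without daf-2lf replicate 1 the calls were 8 negative and 4 positive for muscle and 5 and 1 for tubulins. Without double-mutant replicate 2 the muscle list gave 3 negative calls. Body wall muscle markers summed to 8137 to 10075 CPM in the double mutant, 5753 to 7960.2 in daf-2lf, 4249 to 8096 in skn-1gf and 7349.8 to 7531 in wild type, and these ranges overlap between daf-2lf, skn-1gf and wild type. Among these markers is myo-3, a gene of the muscle list, so they are no separate readout. The body wall troponin C gene pat-10 had 1691 CPM in the double mutant, 2245 in daf-2lf, 2270.4 in skn-1gf and 1236 in wild type and -1.29 log2, and the intestinal actin act-5, which the same list holds, had -1.55 log2. The body wall myosin gene myo-3 was positive at 0.76 log2, a call made in 11 of 24 alternatives. The touch-neuron tubulin genes mec-7 and mec-12 had -1.83 and -1.33 log2.

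**Figure D4:**
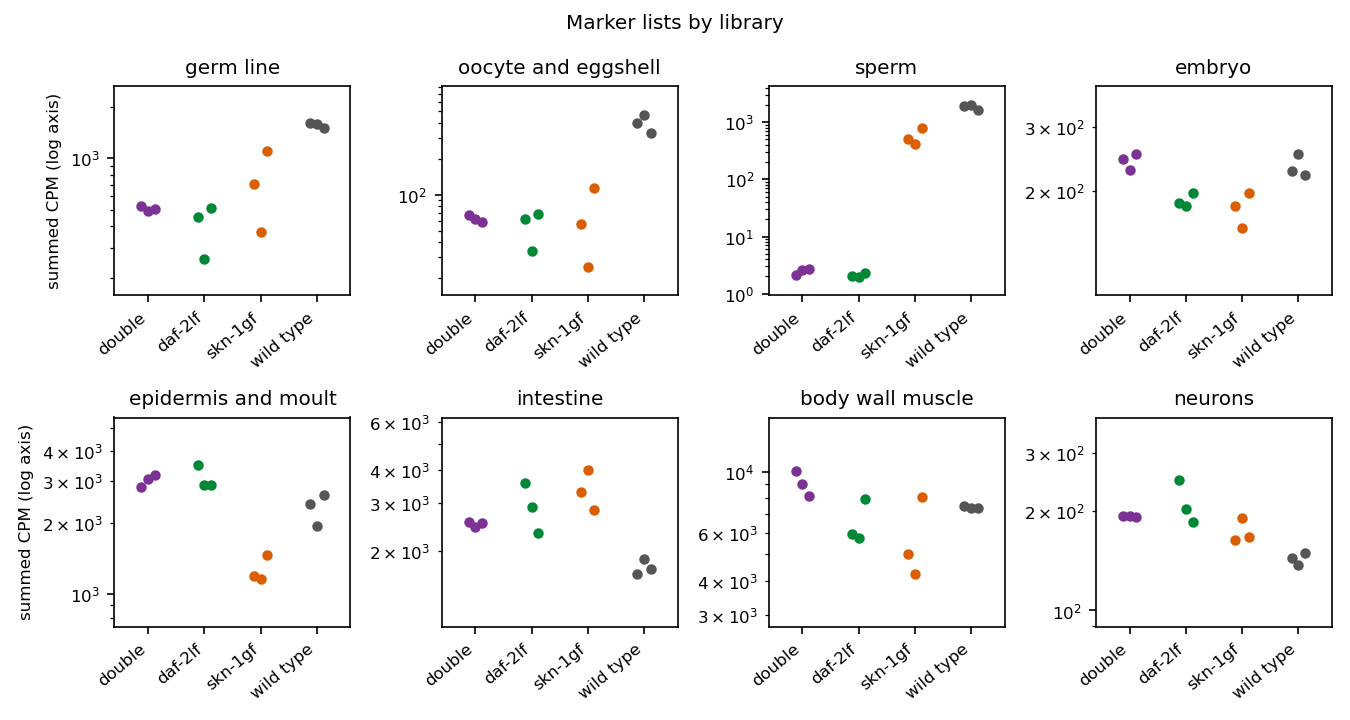
Summed CPM on a log axis of 8 fixed marker lists in each library, 1 panel per list, with the double mutant, daf-2lf, skn-1gf and wild type in that order. Germ-line, oocyte and sperm markers are highest in wild type, and epidermis and moult markers are lowest in skn-1gf. The embryo list includes the mutated gene skn-1, which made up most of its sum in each mutant genotype. That panel therefore does not show the course of the other embryo markers.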

How the data were processed

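The deposited table holds raw counts per gene from the authors, whole numbers for 12 libraries of whole worms with 3 per genotype. It also holds their gene length in bases, used as deposited. Aligner, counter, strandedness and the handling of multi-mapping reads are not given in the sources used here. Per the submitters' processing notes the build was ce10, whereas the chromosome versions and coordinates in the table are those of WBcel235. Of its gene IDs, 46920 matched RefSeq's WBcel235 table and 45476 had the same coordinates, so coordinates are given as WBcel235. Ribosomal RNA genes held 1.36 to 2.57% of the counts.

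From these counts, genes were kept by edgeR's filterByExpr with a minimum count of 10, and CPM were computed with TMM-scaled library sizes. The interaction and the 4 simple comparisons were tested with edgeR 4.0.16 (R 4.3.3, limma 3.58.1), by glmQLFit with robust estimation and glmQLFTest over 4 genotype means from all 12 libraries. P-values were adjusted by the Benjamini-Hochberg method over all 15575 genes tested and called under 0.05. The standard error is the log2 value divided by the square root of F. The additive expectation is the daf-2lf mean times the skn-1gf mean over the wild-type mean. The tests were checked on simulated counts drawn independently for each library. The simulation held no shift of a single library with gene length, so it does not cover that feature of daf-2lf replicate 1. Total counts of 16779245 to 29346039 per library set the precision, and floors of 3 counts cover counting error only.

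The members and the 69 gene lists were chosen with earlier results of these data known. Named genes were skn-1, daf-2, gst-4, gcs-1 and sod-3, the 10 protein-coding members with the largest interaction in each direction, up to 4 per list and direction with the largest absolute interaction, and the 3 largest called per shape of the 4 means. Those of the extremes and the lists had to be called with the same sign with all libraries and without daf-2lf replicate 1. In a list with no call, the 2 most abundant members were named. Alternatives were DESeq2 1.42.0, limma-voom with quality weights, RLE and upper-quartile scaling, other filters, a length trend, a 2-fold threshold (glmTreat), a replicate block, each library left out, other membership rules and, added after the data were seen, a fit without robust estimation. Replicate numbers come from the column names of the table and did not pair the libraries.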

Additional observations from a re-analysis of the deposited data

Results flagged for a closer look

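Each result here was picked out because the skn-1gf step in the daf-2lf background differed from that in the wild-type background by the test of the difference itself, edgeR's quasi-likelihood test of the interaction adjusted over all genes tested. This held for 1116 members with a positive and 2220 with a negative interaction, out of 11248. The 20 protein-coding members named below, the 10 largest interactions in each direction that were called both with all libraries and without daf-2lf replicate 1, were each called with the same sign in all 24 alternative fits.

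The positive ones began with Y47D7A.15 at 7.85 log2 (95% interval 6.54 to 9.17) and rol-1 at 7.79 log2 (6.29 to 9.29). The collagens col-138, col-71 and col-97 had 6.24, 5.40 and 5.23 log2. C38C6.3 had 5.49 log2, ZC84.1 had 5.40 log2, grl-5 had 5.34 log2, mam-2 had 5.26 log2 and C50D2.1 had 5.12 log2, with lower bounds of 4.62, 4.06, 4.42, 3.98 and 4.25 log2. The negative ones began with col-146 at -6.06 log2 (-7.45 to -4.67) and K07E1.1 at -5.62 log2 (-6.86 to -4.38). The collagens col-147, col-39 and col-160 had -5.55, -5.09 and -5.04 log2. F55H12.4 had -5.01 log2, grd-10 had -4.97 log2, F18E9.3 had -4.91 log2, del-6 had -4.78 log2 and F35B3.4 had -4.76 log2, with upper bounds of -3.85, -3.58, -3.16, -3.24 and -3.36 log2.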

How the results depend on the processing

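No member called was called with the opposite sign under any alternative, though those that kept the log2 values of the main fit could not reverse a sign. Calls numbered 1968 positive and 1992 negative with DESeq2, with independent filtering on or off, 3134 and 4370 with limma-voom quality weights, and 315 and 471 against a 2-fold threshold. With members at a mean of 5 CPM or more, 732 positive calls were left. Leaving out 1 library gave 663 to 2262 positive and 1404 to 2689 negative calls, the highest counts without daf-2lf replicate 1. The median interaction over members, -0.12 log2 as reported, was 0.038 with DESeq2 under both settings, 0.037 with RLE, -0.15 with a length trend, -0.0052 with no filter on low counts, -0.25 with upper-quartile factors, -0.063 with members at 5 CPM and -0.15 to -0.043 with a library left out. List medians near 0 changed sign under some alternatives, among them those of the proteasome, lipases, autophagy, metal transport, beta-oxidation, synaptic genes and the SKN-1 and insulin regulators. The cause was not tested.

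The interaction of skn-1, 0.02 log2, became -0.16 with a length trend, -0.083 with limma-voom, -0.12 with upper-quartile factors and -0.15 with the replicate block and length trend, and ran from -0.028 to 0.089 with a library left out. The interaction of daf-2, 0.01 log2, became -0.16 with a length trend, -0.42 with limma-voom, -0.058 with upper-quartile factors and -0.14 with the replicate block and length trend, and ran from -0.33 to 0.30 with a library left out. The interaction of tars-1 turned to 0.024 with DESeq2 and RLE and to 0.026 without daf-2lf replicate 1, that of kars-1 to 0.090 with DESeq2 and RLE, 0.15 with limma-voom, 0.052 with no filter and 0.22 without daf-2lf replicate 1, and gcs-1 ran from -0.51 without daf-2lf replicate 1 to 0.065 without replicate 2. No other named gene changed sign. Of 4416 values of 184 named genes other than skn-1 and daf-2, 4214 kept their call and direction, 181 lost a call, 9 gained one, those of gst-4, gcs-1 and sod-3, and 12 changed sign, those of tars-1, kars-1 and gcs-1.

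With the replicate number as a block, calls were 1177 positive and 1990 negative, with a median of -0.10 log2. The numbers did not pair the libraries, since the 18 same-numbered pairs had correlations of -0.13 to 0.30, only 2 of them over 0.1. Precision limits small effects: genes near 1 CPM rest on few reads, and only 28.6% of members had an interval inside -1 to 1 log2.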

Other observations

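Protein domains named in the deposited gene descriptions were counted over members, for domains with at least 15 members. Those given here were chosen after their values were seen and carry no test. They are set beside 9.92% positive and 19.7% negative calls over all members. Negative calls were frequent among genes with a CUB-like domain, which in worms mark many secreted infection response proteins, at 17 of 34 with 0 positive. Class 3 lipases had 10 negative and 0 positive calls of 18, transmembrane amino acid transporters 7 and 0 of 15, and EF-hand pair proteins, which bind calcium, 14 and 2 of 31. Bestrophins, which are chloride channels, had 7 and 1 of 18. Positive calls were frequent among CCCH-type zinc finger genes, many of which bind RNA in the germ line and embryo, at 10 of 15 with 1 negative. Kunitz-type protease inhibitors had 10 positive and 5 negative calls of 25, glycosyltransferase family 92 genes 8 and 4 of 16, and PAN domain genes 7 and 3 of 17.

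By chromosome, negative calls made up 24.8% of 1652 members on X and 25.2% of 2108 on V, against 14.4% of 1906 on I, 15.97% of 1897 on III, 18.4% of 1846 on II and 19.5% of 1825 on IV. The share of positive calls was 7.57% on X and 9.70 to 11.3% on the autosomes. Median interactions were -0.36 log2 on X, -0.26 on V and 0.09 on I, and -0.32, -0.18 and 0.10 without daf-2lf replicate 1. Of 14 mitochondrial genes, 7 were called negative and 0 positive, with a median of -1.15 log2, or -0.55 without that library. Across members, the interaction had a Spearman rho of 0.40 with gene length, and 0.25 without daf-2lf replicate 1, given as a description over genes that share the same 12 libraries.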
